A study of Mus musculus with 8 samples.

Results

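Chemokine ligand genes were followed across the cell types of the mouse distal colon. Members were taken by name: every row of the deposited gene table whose symbol began with Ccl, Cxcl, Cx3cl or Xcl and ended in a number with at most 1 letter. This gave 44 of 31053 rows, which carry 39 symbols, since 5 symbols are listed more than once on unplaced scaffolds. Of the 44 rows, 34 had at least 1 unique molecular identifier (UMI, 1 counted transcript molecule) and 10 had none. The 29 members with at least 100 UMIs are described one by one.

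The series holds transcript counts, read at 3′ ends, of single cells isolated from distal colonic mucosa in 8 mice aged 8 weeks. WT-labelled mice (Spry2-f/f, no Cre, mice 1, 4, 5 and 8) carried floxed Spry2 alleles only, and KO-labelled mice (Vil1::Cre;Spry2-f/f, mice 2, 3, 6 and 7) were littermates with the same floxed alleles plus a Cre under the villin promoter, a promoter used to reach intestinal epithelium. All mice thus carried floxed Spry2, a gene for an inhibitor of receptor tyrosine kinase signalling, and the labels name 1 animal a library. Outer layers of the gut wall were peeled off, dying cells were depleted by annexin V binding, and the 8 libraries came from 1 run on 1 day.

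Chemokines are small secreted proteins that guide leukocytes along gradients by binding receptors that signal through G proteins. Some are made at rest and keep lymphocytes and dendritic cells moving through tissue and lymph vessels. Others are induced by microbial products or cytokines and draw in neutrophils, monocytes or effector T cells. In the colon, epithelium, stroma, vessels and resident leukocytes each make a part of this set.

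Levels are given as CPM, the UMIs of a gene per 1e6 UMIs of all cells of a type in 1 mouse. The authors' classes and subtypes were used, and the 1316 cells they named doublets were left out, which left 51764 cells. A mouse counted for a type when it had at least 20 cells of it, and the main source of a gene was the type with the highest mean CPM over at least 3 such mice. Levels in single cells summed this way cannot tell fewer expressing cells from less RNA per cell, so the share of cells with a UMI is given beside them. The classes were drawn by the authors from the same cells, so differences between classes are a description and carry no test.

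Promoter stretches of 4 genes are shown because they belong to members whose sources the values below set apart: Cxcl1 and Cxcl2, neighbours on chromosome 5 with the same receptor and different main classes, Cxcl10, whose main class changed with the setting, and Ccl21a, a lymphatic gene. Each is the 250 bases before the RefSeq start of the gene on its own strand, from RefSeq on GRCm38.p6, with matches to 3 motifs in capitals. The motifs searched were an NF-kB motif (GGG, any 3 bases, TTCC, on both strands), an interferon response motif (GAAA, any 2 bases, GAAA, on both strands) and TATAAA (gene strand only). Overlapping matches run together.
Cxcl1, chr5:90890995-90891244, plus strand: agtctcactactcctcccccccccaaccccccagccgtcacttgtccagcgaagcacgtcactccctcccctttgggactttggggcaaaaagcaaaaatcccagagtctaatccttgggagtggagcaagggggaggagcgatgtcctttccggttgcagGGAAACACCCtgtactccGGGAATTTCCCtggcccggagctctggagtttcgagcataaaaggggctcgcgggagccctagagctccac
Cxcl2, chr5:90903649-90903898, plus strand: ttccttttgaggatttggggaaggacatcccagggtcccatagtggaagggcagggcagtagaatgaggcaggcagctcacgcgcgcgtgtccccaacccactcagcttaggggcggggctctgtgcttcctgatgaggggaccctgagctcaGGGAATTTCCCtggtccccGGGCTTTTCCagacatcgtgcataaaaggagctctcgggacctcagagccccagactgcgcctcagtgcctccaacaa
Cxcl10, chr5:92348890-92349139, minus strand: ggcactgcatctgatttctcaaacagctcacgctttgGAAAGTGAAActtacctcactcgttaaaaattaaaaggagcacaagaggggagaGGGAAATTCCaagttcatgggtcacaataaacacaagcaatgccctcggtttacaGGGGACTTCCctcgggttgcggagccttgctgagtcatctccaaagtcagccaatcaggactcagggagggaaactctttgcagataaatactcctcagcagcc
Ccl21a, chr4:42773992-42774241, minus strand: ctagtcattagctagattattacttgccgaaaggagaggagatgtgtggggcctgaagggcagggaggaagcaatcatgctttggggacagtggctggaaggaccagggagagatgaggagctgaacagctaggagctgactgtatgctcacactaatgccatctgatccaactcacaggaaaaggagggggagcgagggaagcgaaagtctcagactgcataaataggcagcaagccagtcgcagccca

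Cxcl1 and Cxcl2 each held 3 matches to the NF-kB motif, of which 2 overlapped. Cxcl10 held 2 matches to it and 1 to the interferon motif, and Ccl21a held none of the 3 motifs. Of 22 members with a promoter in the RefSeq table, 6 held the NF-kB motif (Ccl1, Ccl20, Ccl9, Cxcl1, Cxcl10 and Cxcl2), against 4.65% of 32851 promoters of the same length. The interferon motif was in 2 members (Cxcl10 and Cxcl14) and in 2.98% of all promoters. TATAAA was in 7 members and in 7.59% of all promoters. A match is a description of the letters in the window only.

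Total counts ranged from 17.0 to 37.3 M UMIs a mouse (M, 1e6), from 3302 to 10101 cells. The share of epithelial cells with at least 50% mitochondrial UMIs ran from 11.1% to 79.6% and was highest in mice 1 to 4. Libraries shared 356 of 52717 cell barcodes. Spry2 itself was at 10.4 to 49.3 CPM in epithelium of KO-labelled mice and at 11.2 to 37.6 CPM in that of WT-labelled mice, with a log2 fold change of -0.12 ± 0.35 (SE; adjusted p = 1.00, edgeR quasi-likelihood test). Tags at the 3′ end can lie outside a deleted part, so this checks nothing, and the groups are called by their labels throughout. The authors' classes were highest for the marker lists of their names, except the dendritic class, which was highest for 2 of 6 dendritic cell markers (Flt3 and Batf3). Xcr1 and Cd209a were highest in the macrophage class, Zbtb46 in endothelium and Itgax in neutrophils, so values of the dendritic class are those of cells the authors called so. The 4 mast cell markers were highest in the T cell class. No epithelial cell of a KO-labelled mouse (10558 cells) had a subtype name from the authors, so epithelial subtypes are described in WT-labelled mice alone.

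Main sources were spread over 7 classes. Macrophages were the main source of 11 of the 29 members, fibroblasts, epithelium and T cells of 4 each, endothelium of 3, myofibroblasts of 2 and lymphatics of 1. B cells were the main source of 0, although they gave 14700 cells. In 8 of the 29 the range over mice in the main class did not overlap that in the next class, and in 14 the main class was the higher one in every mouse that had both. The main class of 20 members was the same under every alternative tried. Summed over all members, lymphatics reached 21326 ± 3393 CPM (SD, n = 7 mice), endothelium 3980 ± 2876 (n = 6), T cells 3727 ± 1233 (n = 8), macrophages 3174 ± 861 (n = 7) and fibroblasts 2160 ± 756 (n = 8). A single endothelial cell of mouse 6, described below with Ccl2, held 806 member UMIs, and without it endothelium was at 2829 ± 1022 CPM (n = 6), below T cells and macrophages. Epithelium held 324 ± 81.6 CPM (n = 8) and B cells 123 ± 39.4 CPM (n = 8).

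**Figure D1:**
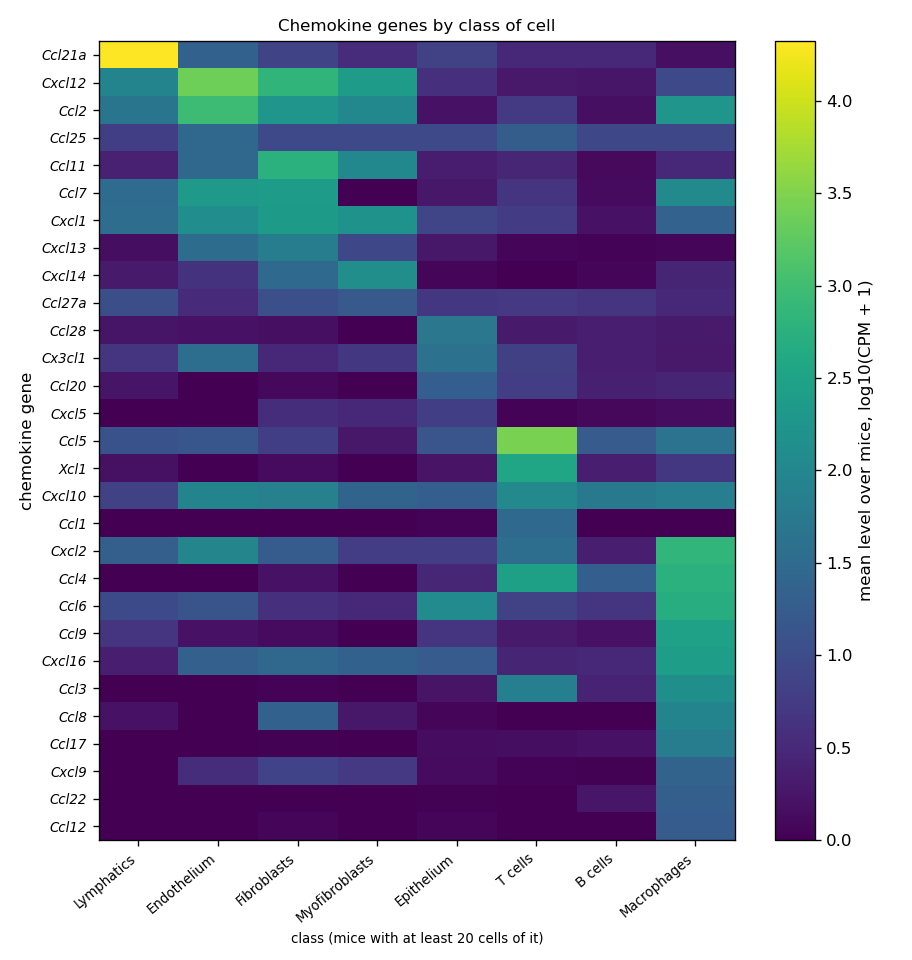
Mean level over mice of the 29 members (rows) in 8 classes of cell (columns), as log10(CPM + 1), with mice counted where they had at least 20 cells of a class. Rows are ordered by main class: Ccl21a stands alone in lymphatics, and 11 members are highest in macrophages.

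The ligands of CCR7 and CXCR5, which bring lymphocytes and dendritic cells into lymphoid tissue and lymph vessels, had narrow sources. Ccl21a was a lymphatic gene. Its level in lymphatics was 17278, 24195, 24293 and 23202 CPM in KO-labelled mice 2, 3, 6 and 7, and 16498, 19041 and 22818 CPM in WT-labelled mice 4, 5 and 8. The lowest of these was still far above the endothelium, the next class, whose mean was 21.1 ± 47.3 CPM (SD, n = 6). A UMI of Ccl21a was found in 96.5% of 370 lymphatic cells (median 2620 UMIs a cell) and in 0.256% of epithelial cells (median 1743 UMIs), which should lack the gene. Lymphatics held 96.8% of all Ccl21a UMIs. Near-identical copies of Ccl21a are annotated (Ccl21b and Ccl21c), and how the authors' counting split reads among them is not given in the sources used here, so the Ccl21a level is uncertain in that respect. Ccl21c had 4 UMIs, all in lymphatics, and Ccl21b had 0. Ccl19, the other CCR7 ligand, had 20 UMIs, 90.0% of them in fibroblasts.

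Cxcl13, the CXCR5 ligand that places B cells in follicles, came from 1 kind of fibroblast. In the class as a whole it was at 63.2 ± 43.6 CPM (SD, n = 8), while in the fibroblasts the authors named CD90-pos, Igfbp3 it reached 280 ± 202 CPM (n = 7) with a UMI in 11.9% of cells after thinning to 1000 UMIs a cell. In CD90-pos fibroblasts without that addition it lay between 0 and 13.2 CPM. The spread over mice within the Igfbp3 subtype was wide, from 27.0 CPM in mouse 7 to 525 CPM in mouse 4.

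Cxcl12, the ligand of CXCR4 that retains lymphocytes and progenitors in stroma, was highest per UMI in endothelium. It measured 4573, 1457 and 1061 CPM in KO-labelled mice 3, 6 and 7 and 2536, 2372 and 1976 CPM in WT-labelled mice 4, 5 and 8. Endothelium lay above fibroblasts, whose mean was 670 ± 543 CPM (SD, n = 8), in 6 of 6 mice. Endothelium was small, 265 cells, and held 10.2% of Cxcl12 UMIs, whereas fibroblasts held 86.3%. Among fibroblasts the CD90-pos, Igfbp3 subtype carried 1458 ± 250 CPM (n = 7). The values of that subtype ran from 1065 to 1873 CPM, and endothelium was above it in 5 of 6 mice. The Igfbp3 fibroblasts had the larger share of cells with a Cxcl12 UMI, 93.4% against 75.6% in endothelium. After each cell was thinned to 1000 UMIs these shares were 70.4% and 65.0%. With at least 50 cells a mouse required, which left endothelium too few mice, fibroblasts had the highest CPM.

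Fibroblasts were the main source of the eosinophil chemokine Ccl11, the CCR2 ligand Ccl7 and the CXCR2 ligand Cxcl1. Ccl11 stood at 541, 568, 560 and 332 CPM in KO-labelled mice 2, 3, 6 and 7 and at 370, 377, 411 and 1393 CPM in WT-labelled mice 1, 4, 5 and 8. The value of mouse 8 was above all others, and the groups overlapped. Of the 188 fibroblasts of mouse 8, 164 were of the CD90-pos, Igfbp3 subtype, against 81 of 785 in mouse 2, so class values of Ccl11, Ccl7 and Cxcl1 in mouse 8 come from another mix of subtypes. In mouse 8 Ccl11 was at 1449 CPM in that subtype and at 1003 CPM in 21 CD90-pos cells, both the highest among mice with at least 20 cells. Fibroblasts held 98.1% of Ccl11 UMIs, and 57.7% of their cells had 1 (31.4% after thinning to 1000 UMIs), against 0.189% of epithelial cells (median 1743 UMIs, fibroblasts 4035.5). Ccl7 in fibroblasts ranged from 21.3 CPM in mouse 8 to 367 CPM in mouse 4, with a mean of 238 ± 108 CPM (SD, n = 8). Cxcl1 ranged from 102 CPM in mouse 8 to 331 CPM in mouse 6, with a mean of 222 ± 68.7 CPM (n = 8), and myofibroblasts followed at 158 ± 145 CPM (n = 3). CD90-pos fibroblasts led for Ccl11 (583 ± 214 CPM, n = 8) and Cxcl1 (224 ± 100 CPM, n = 8). The Igfbp3 fibroblasts followed at 456 ± 457 CPM of Ccl11 and 181 ± 81.5 CPM of Cxcl1 (n = 7 each). CD90-pos fibroblasts were the higher in 6 of 7 mice for Ccl11 and 5 of 7 for Cxcl1. In WT-labelled mice alone the Igfbp3 fibroblasts led for Ccl11, and without mouse 6 the SMA-pos myofibroblasts led for Cxcl1. The small MSC subtype led for Ccl7 (329 ± 214 CPM, n = 3), close to CD90-pos fibroblasts at 316 ± 185 CPM (n = 8).

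Ccl2, the main monocyte attractant, showed how 1 cell can set a source. By the mean over mice its main class was endothelium, at 931 ± 2208 CPM (SD, n = 6), but 5437 CPM of it came from mouse 6 and 150 CPM from mouse 4, and the other 4 mice were at 0. A single cell in mouse 6 held 571 of the 581 endothelial Ccl2 UMIs, together with 124 of 129 endothelial Ccl7 UMIs and 55 of 58 endothelial Cxcl2 UMIs. That cell had 31300 UMIs, of which 1869 fell on the plasma cell list, 110 on the fibroblast list and 25 on the endothelial list, and it was not among the doublets the authors named. With the top cell of each mouse and class left out, Ccl2 was at 152 CPM in fibroblasts and 140 CPM in macrophages and at 0 in endothelium. Across mice Ccl2 was 179 CPM in both fibroblasts and macrophages, and 73.2% of its UMIs were in fibroblasts. Without mouse 6, or in the share of cells with a UMI, macrophages led. The level of Ccl7 in endothelium, 207 ± 478 CPM (n = 6), rested on the same cell.

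**Figure D2:**
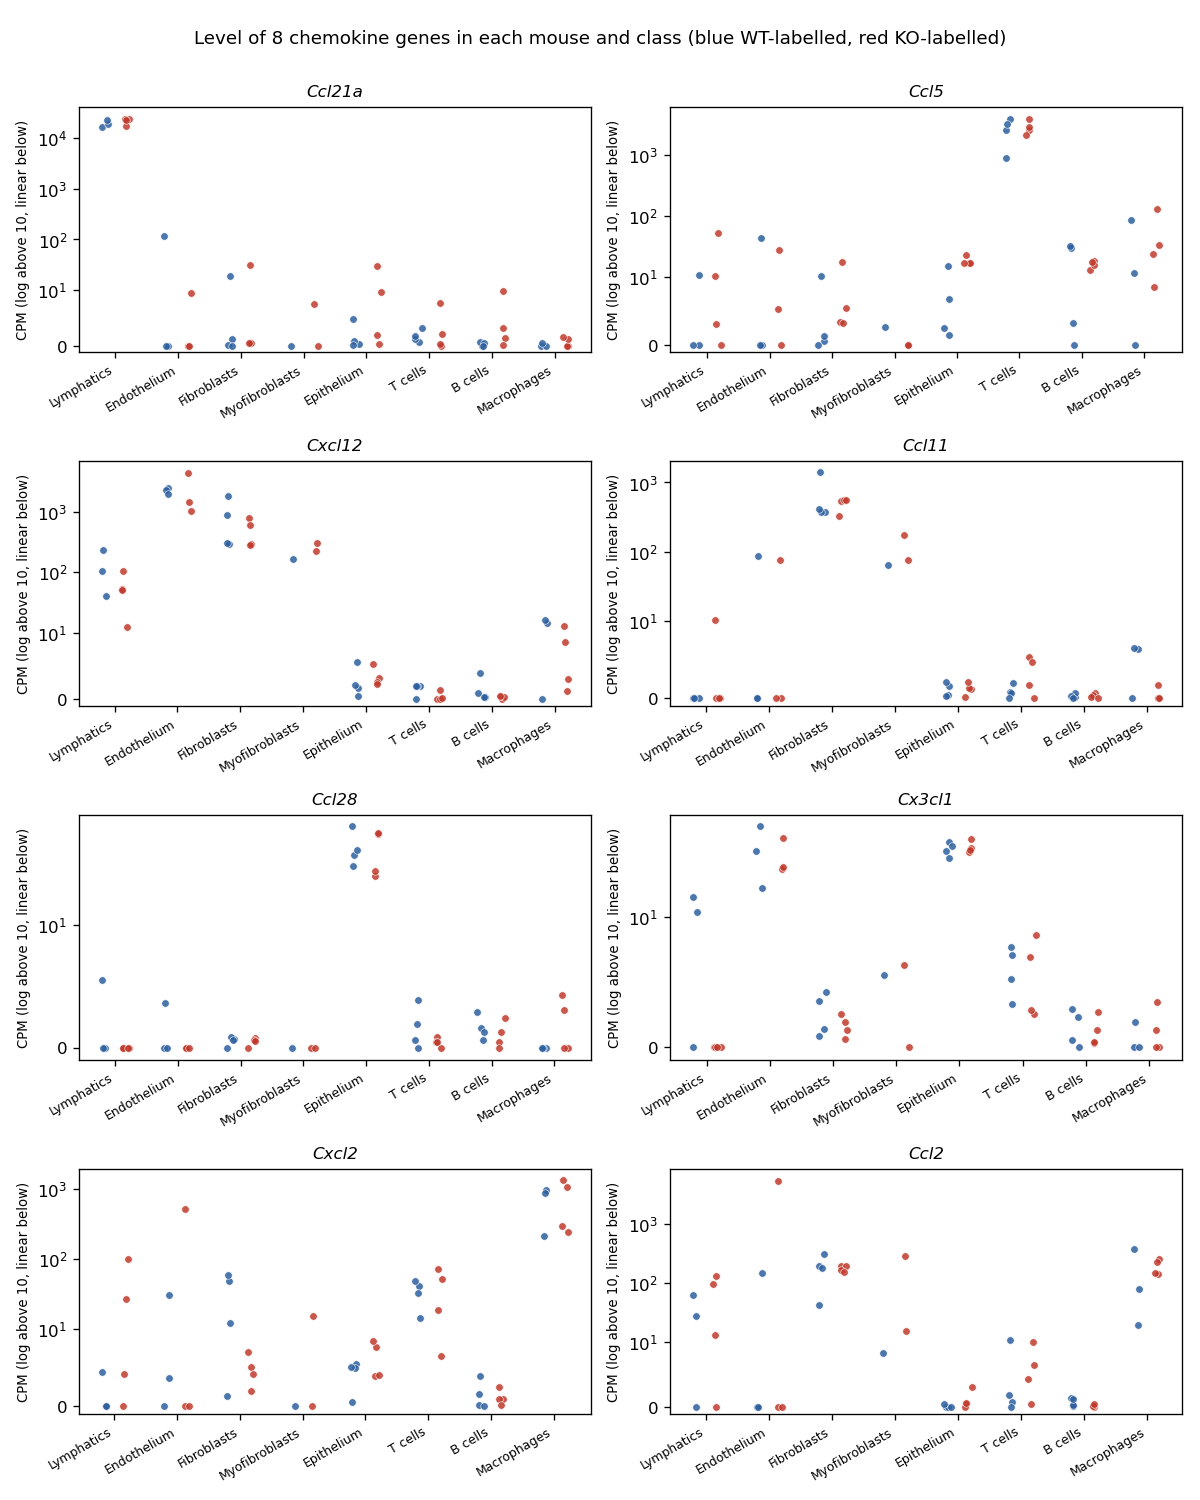
Level of 8 members in each mouse with at least 20 cells of a class, on an axis that is linear below 10 CPM and logarithmic above it (blue WT-labelled, red KO-labelled). Ccl21a, Ccl5 and Ccl28 are set apart from every other class in all mice, and the single red point of Ccl2 in endothelium at 5437 CPM is mouse 6.

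The other CCR2 ligands were macrophage genes. Ccl8 was at 88.1 ± 69.0 CPM in macrophages (SD, n = 7), with 0 in mouse 1 and 186 CPM in mouse 5, and the Igfbp3 fibroblasts followed with 44.3 ± 27.7 CPM (n = 7). Ccl12 was at 17.3 ± 16.4 CPM (n = 7), and 1 cell in mouse 6 held 28.4% of the macrophage UMIs of Ccl12. Both genes lie beside Ccl2, Ccl7 and Ccl11 on chromosome 11, between 82035571 and 82116799 on mm10, so members of 1 cluster had different main classes.

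The CXCR2 ligands, which draw in neutrophils, were divided among cell types. Cxcl2 was a macrophage gene among the classes with enough cells. It was at 1050, 1321, 239 and 293 CPM in KO-labelled mice 2, 3, 6 and 7 and at 209, 968 and 861 CPM in WT-labelled mice 1, 4 and 5, and each group held both low and high mice. Cxcl2 was carried by few cells at high counts: 21.8% of macrophages had a UMI, the median of those cells was 8 UMIs, and 23 cells held 50% of the total. The 32 neutrophils, too few in any mouse for a mean, gave 10161 CPM when pooled (95% exact Poisson interval 9209 to 11184 CPM, counting error only), with Cxcl2 in 27 of 32 cells. Among lymphoid cells the type 2 innate lymphoid cells (ILC2) stood out with 214 ± 149 CPM (SD, n = 8). Cxcl5 was by class an epithelial gene at a low level, 5.31 ± 3.41 CPM (n = 8). By subtype it averaged 13.4 ± 7.57 CPM in enterocytes (n = 4 WT-labelled mice) and 10.1 ± 15.8 CPM in the Igfbp3 fibroblasts (n = 7). In WT-labelled mice alone the Igfbp3 fibroblasts led, and 1 cell of mouse 4 held 19 of the 61 Cxcl5 UMIs of that subtype. Cxcl3 had 65 UMIs and Cxcl15 had 0. Cxcl1, Cxcl2 and Cxcl3 are close in sequence, so reads shared between them are a further uncertainty.

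The inflammatory CC ligands Ccl5, Ccl3 and Ccl4, which act on T cells and monocytes, fell to T cells and macrophages. Ccl5 was at 2557, 3906, 2858 and 2143 CPM in T cells of KO-labelled mice 2, 3, 6 and 7 and at 910, 4007, 2609 and 3303 CPM in those of WT-labelled mice 1, 4, 5 and 8. The next class, macrophages, was at 43.0 ± 49.4 CPM (SD, n = 7), and the ranges did not overlap. Within T cells Ccl5 was highest in 2 subtypes. The cells named Activated had 8415 ± 2434 CPM (n = 8) with a UMI in 85.7% of cells, and ILC1-NK cells had 4543 ± 1258 CPM (n = 8). Activated cells lay above ILC1-NK cells in 8 of 8 mice. Memory and ILC2 cells lay far below, with no mouse above 243 CPM. The share of fibroblasts with a Ccl5 UMI was 1.49% (median 4035.5 UMIs), against 31.2% of T cells (median 2404 UMIs). The 33 cells of the dendritic class, pooled, had 5146 CPM of Ccl5 (95% interval 4819 to 5488 CPM), and 1 of them held 37.2% of it.

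Ccl3 and Ccl4 were shared among macrophages, ILC1-NK cells and other T cell subtypes. In macrophages Ccl4 was at 578 ± 340 CPM (SD, n = 7) and Ccl3 at 142 ± 57.9 CPM (n = 7), and in both cases macrophages lay above the T cell class in 7 of 7 mice. ILC1-NK cells on their own were higher than macrophages, with 1745 ± 926 CPM of Ccl4 and 417 ± 274 CPM of Ccl3 (n = 8), in 6 of 7 mice for each gene. T cells held 47.1% of Ccl4 UMIs and 48.0% of Ccl3 UMIs.

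Ccl6 and Ccl9, rodent CCR1 ligands, were found in macrophages and in secretory epithelium. Ccl9 was at 301 ± 127 CPM in macrophages (SD, n = 7) and at 3.60 CPM on average in the next class, lymphatics. Epithelium held 20.7% of Ccl9 UMIs, and in WT-labelled mice DCS cells were at 36.5 ± 10.5 CPM and secretory progenitors at 12.9 ± 8.16 CPM (n = 4 each). Ccl6 was at 500 ± 225 CPM in macrophages (n = 7), above epithelium at 119 ± 69.5 CPM (n = 8), and yet epithelium held 83.0% of Ccl6 UMIs. In WT-labelled mice 1, 4, 5 and 8 the deep crypt secretory (DCS) cells had 909, 870, 1524 and 867 CPM of Ccl6, and the secretory progenitors 717, 789, 1464 and 816 CPM. Enterocytes of the same mice had 6.54 to 17.4 CPM. DCS cells were above secretory progenitors in 4 of 4 mice by a small margin, and both were above the mean of macrophages. Pooled over mice, the order of the 2 epithelial subtypes turned round.

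The CXCR3 ligands, which are induced by interferon and attract effector T cells and NK cells, had no single source. Cxcl10 was at 107 ± 70.9 CPM in T cells (SD, n = 8), 89.6 ± 95.3 CPM in endothelium (n = 6) and 76.8 CPM in fibroblasts, and the ranges overlapped. Without mouse 3 endothelium led, in WT-labelled mice alone fibroblasts led, and by the share of cells with a UMI macrophages led. By UMIs, B cells held 33.0% of Cxcl10, fibroblasts 24.5%, epithelium 19.8% and T cells 17.2%. Few cells carried it: in T cells 26 of 5434 cells held 50% of the 1491 UMIs. Among subtypes ILC2 had 260 ± 157 CPM (n = 8) and the Igfbp3 fibroblasts 237 ± 378 CPM (n = 7), and the second value included 1 cell of WT-labelled mouse 4. That cell held 445 of the 1232 Cxcl10 UMIs of the subtype and 160 of its 175 Cxcl9 UMIs, as well as 160 UMIs of Cxcl2 and 156 of Ccl2. Of its 7698 UMIs 13 fell on the fibroblast list. Cxcl9 was otherwise a macrophage gene, at 22.5 ± 15.5 CPM (n = 7).

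The CCR4 ligands Ccl17 and Ccl22, which attract type 2 and regulatory T cells, were found in myeloid cells. In macrophages Ccl17 was at 12.4, 0, 47.3 and 65.4 CPM in KO-labelled mice 2, 3, 6 and 7 and at 6.35, 283 and 62.0 CPM in WT-labelled mice 1, 4 and 5. Ccl22 was at 3.10, 0, 7.89 and 24.1 CPM in the same KO-labelled mice and at 0, 66.6 and 31.3 CPM in the same WT-labelled mice. The 33 cells the authors named dendritic held 53.6% of all Ccl22 UMIs and, pooled, 946 CPM of Ccl22 (95% interval 809 to 1099 CPM) and 478 CPM of Ccl17 (383 to 591 CPM). Ccl22 and Ccl17 lie on chromosome 8 on either side of Cx3cl1, whose main class was epithelium. Ccl24, an eosinophil chemokine, had 90 UMIs, 93.3% of them in macrophages, and Ccl26 had 0.

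The mucosal chemokines came from the epithelium in part. Ccl28, which attracts IgA plasma cells through CCR10, was at 27.9, 30.7, 66.8 and 69.0 CPM in epithelium of KO-labelled mice 2, 3, 6 and 7 and at 43.3, 34.4, 48.3 and 78.7 CPM in that of WT-labelled mice 1, 4, 5 and 8. The lowest of these values was far above B cells, the next class, at 1.33 ± 0.990 CPM (SD, n = 8). All values of mice 1 to 4 lay below all values of mice 5 to 8. The median mitochondrial share of epithelial cells was 52.2% to 72.9% in mice 1 to 4 and 13.9% to 34.0% in mice 5 to 8. Mitochondrial UMIs count in the total behind CPM, and their part in the Ccl28 level was not tested. Epithelium held 98.0% of Ccl28 UMIs. In WT-labelled mice stem-progenitor cells had 68.8 ± 19.4 CPM and enterocytes 59.2 ± 15.3 CPM (n = 4 each), higher in stem-progenitor cells in 3 of 4 mice. The share of stem-progenitor cells with a Ccl28 UMI, 41.3% at a median of 9138 UMIs, was 6.01% after thinning to 1000 UMIs. Ccl20, the CCR6 ligand of follicle-associated epithelium, was at 18.5 ± 16.2 CPM in epithelium (n = 8), and 27 of 23787 cells held 50% of its UMIs. In Tregs the mean of Ccl20 was 42.0 ± 49.2 CPM (n = 7) from 38 UMIs, with 3 of 7 mice at 0.

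**Figure D3:**
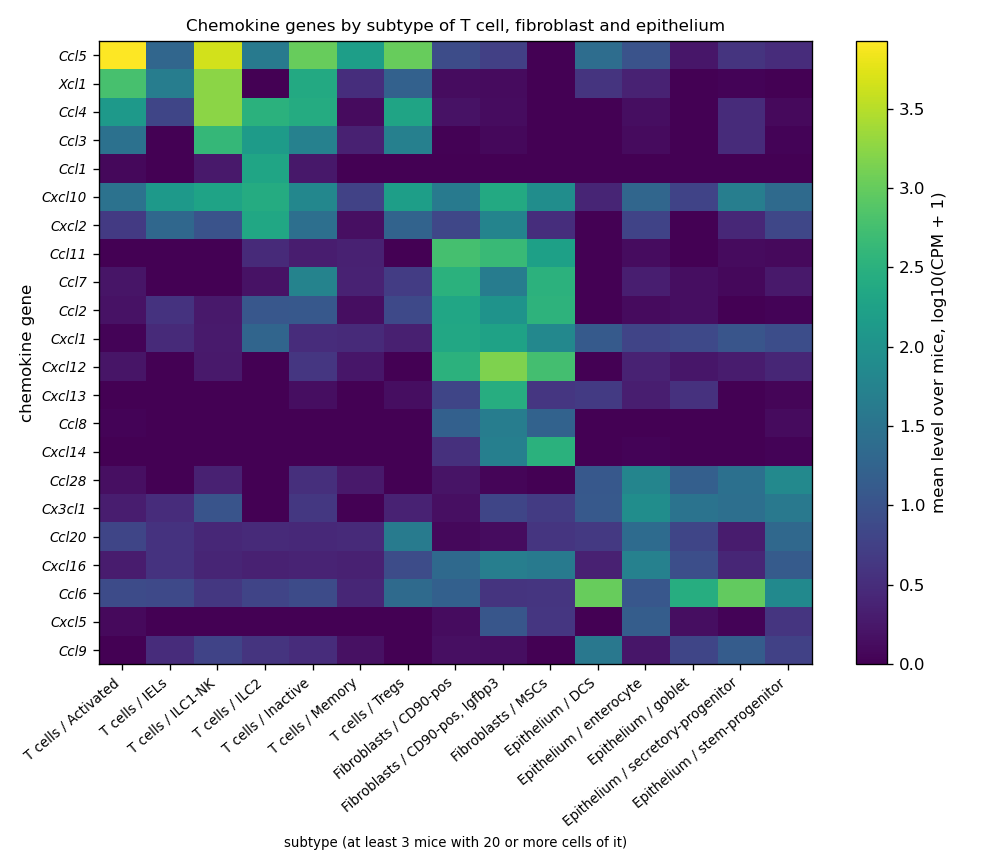
Mean level over mice of 22 members (rows) in subtypes of T cell, fibroblast and epithelium (columns), as log10(CPM + 1), where at least 3 mice had 20 or more cells. Epithelial subtypes come from WT-labelled mice alone. Ccl6 is highest in DCS cells and secretory progenitors, Cxcl13 in the Igfbp3 fibroblasts and Ccl1 in ILC2.

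Cxcl14 was stromal. It was at 138 ± 20.5 CPM in myofibroblasts (SD, n = 3), above fibroblasts at 28.6 ± 23.6 CPM (n = 8) in 3 of 3 mice, and within fibroblasts the MSC subtype had 319 ± 137 CPM (n = 3). In WT-labelled mice alone, or with at least 50 cells a mouse required, fibroblasts led by class and Igfbp3 fibroblasts by subtype. By the share of cells after thinning to 1000 UMIs, SMA-pos myofibroblasts led among subtypes. Ccl25, known as the thymic and small-intestinal ligand of CCR9, and Ccl27a were low and flat. Ccl25 had a mean of 27.1 ± 9.0 CPM in endothelium (n = 6, from 18 UMIs) and 17.5 ± 4.34 CPM in T cells (n = 8). Ccl27a had 14.8 ± 1.98 CPM in myofibroblasts (n = 3, from 10 UMIs) and 10.6 ± 3.06 CPM in fibroblasts (n = 8). Leaving out the top cell of each mouse and class moved both to another class. Ccl25 overlaps Elavl1 and Ccl27a overlaps Il11ra1 on the opposite strand. Cxcl17 had 4 UMIs, Ccl27b 0 and the 2 rows named Ccl27 0.

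The 2 chemokines that are anchored in the membrane differed in source. Cx3cl1, the ligand of CX3CR1 on macrophages, was at 36.3, 39.4, 37.9 and 46.7 CPM in epithelium of KO-labelled mice 2, 3, 6 and 7 and at 37.1, 43.9, 32.3 and 40.4 CPM in that of WT-labelled mice 1, 4, 5 and 8. Its spread over mice was small, 39.3 ± 4.5 CPM (SD, n = 8). Endothelium was close, at 35.8 ± 15.7 CPM (n = 6), and epithelium was the higher of these classes in 3 of 6 mice. Within the epithelium of WT-labelled mice enterocytes had 81.8, 79.8, 85.8 and 82.2 CPM, above stem-progenitor cells at 37.0 ± 7.39 CPM (n = 4) in every mouse. Cxcl16, the ligand of CXCR6, was at 251 ± 75.3 CPM in macrophages (n = 7) and followed in enterocytes at 51.8 ± 4.19 CPM (n = 4). Enterocytes were the highest epithelial subtype for both genes, with stem-progenitor cells at 12.4 ± 10.3 CPM of Cxcl16 (n = 4).

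Xcl1 and Ccl1 were T cell genes, each highest in an innate subtype. Xcl1, which attracts cross-presenting dendritic cells through XCR1, was at 2708, 1378, 2400 and 1587 CPM in ILC1-NK cells of KO-labelled mice 2, 3, 6 and 7 and at 1353, 1054, 1835 and 1720 CPM in those of WT-labelled mice 1, 4, 5 and 8. All 8 values were above the highest in Activated cells, which averaged 595 ± 123 CPM (SD, n = 8), and Inactive cells averaged 237 ± 195 CPM (n = 7). ILC1-NK cells held 1945 of the 4449 Xcl1 UMIs of T cells and Activated cells 2037. A UMI of Xcl1 was found in 84.8% of ILC1-NK cells, 53.3% of Activated cells and 0.168% of epithelial cells. It was found in 0 of 503 ILC2, which allows up to 0.596% of cells with a UMI and sets no limit on cells expressing the gene. Ccl1, a CCR8 ligand, was at 103, 84.2, 495 and 594 CPM in ILC2 of KO-labelled mice 2, 3, 6 and 7 and at 18.3, 53.7, 268 and 0 CPM in those of WT-labelled mice 1, 4, 5 and 8. T cells as a class held 98.7% of Ccl1 UMIs. The groups overlapped for both genes.

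The receptors of these ligands were read from a list of 23 receptor genes. Ccr7, Cxcr4, Ccr10, Cxcr5 and Ccr6 were highest in B cells, the class with no main chemokine, at 367, 270, 134, 117 and 68.6 CPM on average. B cells were above T cells for Ccr7 in 6 of 8 mice and above macrophages for Cxcr4 in 4 of 7. By subtype Ccr10 was highest in plasma cells, at 295 ± 32.7 CPM (SD, n = 8). Ccr2, Cx3cr1, Ccrl2, Ccr1 and Xcr1 were highest in macrophages and Cxcr6, Cxcr3 and Ccr4 in T cells. Ccr9 averaged 46.5 ± 55.3 CPM in macrophages (SD, n = 7) and 38.2 ± 19.1 CPM in T cells (n = 8). Macrophages were above T cells for Ccr9 in 1 of 7 mice only. By subtype Ccr9 was highest in Inactive T cells, at 82.6 CPM. Ccr2 was at 468 CPM in the T cell subtype named IELs and at 423 CPM in macrophages. The scavenging receptors Ackr3 and Ackr2 were highest in lymphatics (375 and 178 CPM) and Ackr4 and Ackr1 in fibroblasts (100 and 45.3 CPM). Lymphatics were above fibroblasts for Ackr3 in 5 of 7 mice. Fibroblasts were above endothelium (33.8 CPM) for Ackr1 in 3 of 6 mice only. Cxcr1 and Cxcr2, the receptors of the neutrophil chemokines, had 1 UMI in each of their highest classes among those with enough cells. In the 32 neutrophils, pooled, Cxcr2 had 34 UMIs in 19 cells and Cxcr1 had 2 UMIs in 2 cells.

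Between genotypes no member passed the test in any type. The comparison asks whether loss of Spry2 in the epithelium goes with other chemokine levels in the epithelium or in its neighbours. Sums per mouse and type were tested with edgeR's quasi-likelihood test and adjusted over all genes of a type by the method of Benjamini and Hochberg. Over 7 classes 65 pairs of a member and a class passed the filter on low counts, and 0 were called at an adjusted p under 0.05, where 0.021% of all 52261 pairs were called. At an unadjusted p under 0.05 there were 6 of 65, against 1.75% of all pairs, and DESeq2 called 0. In 0 of 65 did the groups not overlap, against 2.14% of all pairs. Members were higher in KO-labelled mice in 31 pairs and lower in 34. By class the split was 13 higher and 4 lower in epithelium, 6 and 2 in T cells, 3 and 3 in B cells, 2 and 1 in lymphatics, 0 and 1 in endothelium, 4 and 11 in fibroblasts and 3 and 12 in macrophages. Genes of a class share mice, and the split was not tested. Over 11 subtypes 45 pairs were tested and 0 called, where 0.00194% of all 51670 pairs were called, and DESeq2 called 1. At an unadjusted p under 0.05 there were 9 of 45, against 2.71% of all pairs, and in 2 of 45 the groups did not overlap, against 2.79%. Here 22 were higher and 23 lower. For the receptors 42 class pairs were tested, and 0 were called by edgeR (0 at an unadjusted p under 0.05) or by DESeq2. Of 49 receptor and subtype pairs 0 were called by either, 4 had an unadjusted p under 0.05 and in 1 the groups did not overlap. That pair was Cxcr3 in Inactive T cells, with a log2 fold change of 1.28 ± 0.46 (SE, unadjusted p = 0.0125, adjusted p = 1.00, edgeR). It is named after its value was seen.

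Of the 29 members 24 could be tested in their main class, and 11 were higher and 13 lower in KO-labelled mice, with no adjusted p under 0.995. Ccl21a in lymphatics differed by 0.21 ± 0.22 on the log2 scale (SE), Ccl5 in T cells by 0.09 ± 0.35, Xcl1 in T cells by 0.15 ± 0.31, Cxcl12 in endothelium by -0.05 ± 0.44 and Cx3cl1 in epithelium by 0.09 ± 0.24. Ccl28 in epithelium differed by -0.11 ± 0.21, Ccl20 by 1.13 ± 0.90 and Cxcl5 by 0.40 ± 0.48. In fibroblasts Ccl11 differed by -0.28 ± 0.41, Ccl7 by -0.05 ± 0.54, Cxcl1 by 0.24 ± 0.29 and Cxcl13 by -0.87 ± 0.63. For Ccl11 the value was 0.44 ± 0.22 in CD90-pos fibroblasts (unadjusted p = 0.060) and -1.22 ± 0.51 in the Igfbp3 fibroblasts (unadjusted p = 0.0306), with an adjusted p of at least 0.999 in both (edgeR). The difference between the subtypes was not tested. For Cxcl13 the value in the Igfbp3 fibroblasts, its main subtype, was -0.23 ± 0.67 (unadjusted p = 0.731, edgeR). In macrophages the differences were 0.52 ± 0.37 for Ccl6, 0.44 ± 0.33 for Ccl9, -0.01 ± 0.28 for Cxcl16, -0.06 ± 0.59 for Cxcl2, -0.24 ± 0.51 for Cxcl9, -0.37 ± 0.63 for Ccl8, -0.44 ± 0.45 for Ccl4 and -0.60 ± 0.32 for Ccl3. Of these, 12 changed sign when 1 mouse was left out, so their direction is not settled at this number of mice. The plasma cell list stood at 5751, 4495 and 5761 CPM in the macrophage class of WT-labelled mice 1, 4 and 5. In KO-labelled mice 2, 3, 6 and 7 it stood at 183, 237, 214 and 162 CPM. WT-labelled mouse 8, with 7 macrophages and not in the test, was at 169 CPM. The part of plasma cell transcripts in the macrophage differences was not tested.

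The other 4 members had an unadjusted p under 0.05 in their main class. Cxcl10 in T cells was 1.04 ± 0.39 higher on the log2 scale in KO-labelled mice (SE), with 98.3, 151, 75.0 and 260 CPM in KO-labelled mice 2, 3, 6 and 7 and 36.8, 72.9, 113 and 53.9 CPM in WT-labelled mice 1, 4, 5 and 8. Ccl1 in T cells was 2.06 ± 0.88 higher, and its range without each mouse in turn ran from 0.92 to 3.99. Ccl17 and Ccl22 in macrophages were lower by -1.83 ± 0.77 and -1.86 ± 0.72, and the adjusted p was 1.00 for all 4 (edgeR). Among the mice in that test the macrophage sums also split by label on the plasma cell list, as given above. Without 1 mouse the Ccl17 value ran from -2.35 to -0.43. WT-labelled mouse 4 stood at 283 CPM of Ccl17, and its largest cell held 29.7% of all macrophage UMIs of the gene.

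**Figure D4:**
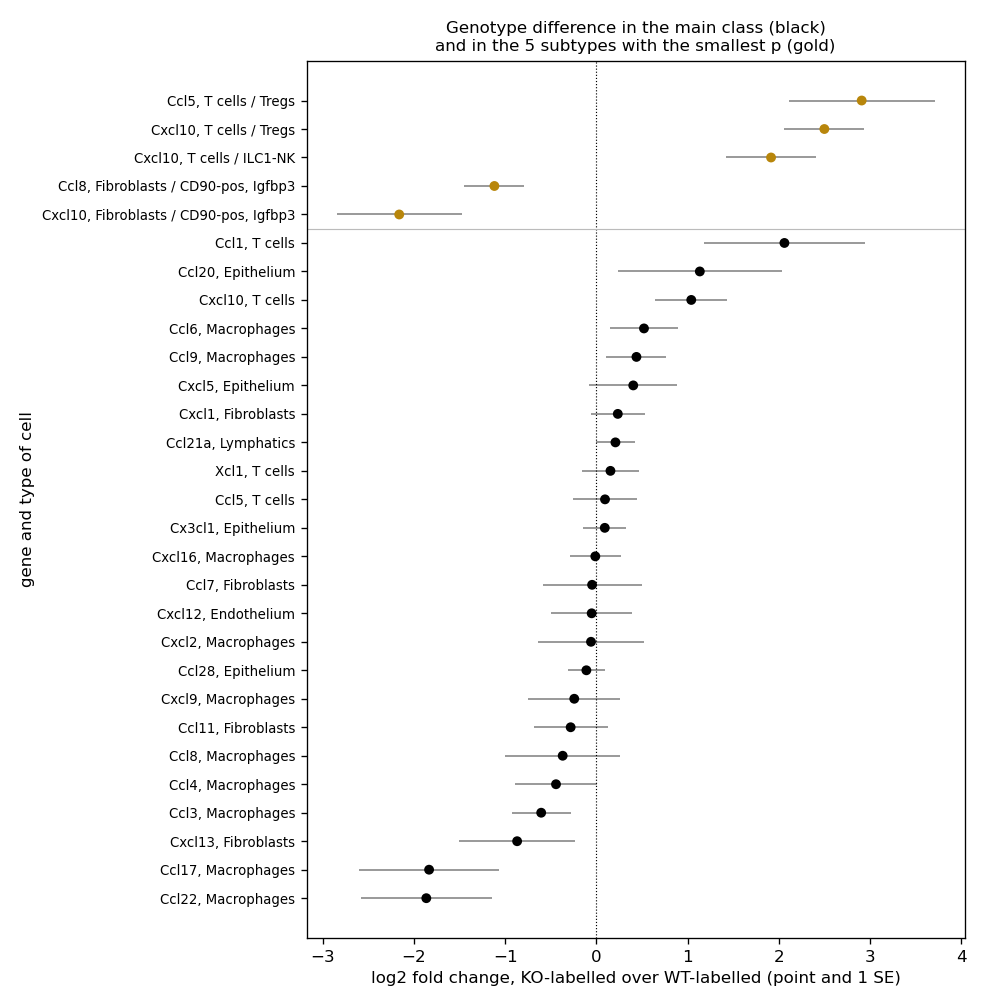
Log2 fold change of KO-labelled over WT-labelled mice with 1 SE, for the 24 members tested in their main class (black) and the 5 member and subtype pairs with the smallest unadjusted p (gold). The black points lie on both sides of 0, and no pair had an adjusted p under 0.05.

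The 5 smallest unadjusted p-values all fell in subtypes. Cxcl10 in Tregs, the regulatory T cells, was at 243, 202, 186 and 363 CPM in KO-labelled mice 2, 3, 6 and 7 and at 13.7, 33.9 and 73.9 CPM in WT-labelled mice 1, 4 and 5. The groups did not overlap. WT-labelled mouse 8, with 19 Tregs, was under the limit of 20 cells and was not in the test, and its level was 110 CPM. The log2 fold change was 2.50 ± 0.44 (SE), with an unadjusted p of 4.07e-05 and an adjusted p of 0.0829 in edgeR and an adjusted p of 0.00145 in DESeq2. It passed in edgeR without WT-labelled mouse 5 (adjusted p = 0.0213) or without KO-labelled mouse 6 (adjusted p = 0.0432), and it ran up to 0.386 without another mouse. The counts behind it were small. KO-labelled mice had 21 to 64 Cxcl10 UMIs in 3 to 10 cells each, and WT-labelled mice 2 to 12 UMIs in 2 to 6 cells. The share of Tregs with a UMI was 10.2% ± 1.82 in KO-labelled mice (SD, n = 4) and 7.41% ± 3.64 in WT-labelled mice (n = 3), while mouse 8, outside the test, had the highest share, 15.8%. With the top cell of each mouse left out, the levels were 99.4 to 175 CPM and 7.06 to 44.6 CPM. Foxp3, the defining gene of Tregs, was at 102 to 135 CPM in KO-labelled and 86.2 to 226 CPM in WT-labelled mice. All 4 genes of the NK and ILC1 marker list were found in Tregs, with a summed level of 117 to 499 CPM in KO-labelled and 20.6 to 215 CPM in WT-labelled mice, while the fibroblast list stood at 0 to 787 CPM in KO-labelled and 11.3 to 34.3 CPM in WT-labelled mice. Neutrophil markers were at 0, and the part of the other markers in the result was not tested.

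Ccl5 in the same cells was at 945, 3226, 195 and 2222 CPM in KO-labelled mice 2, 3, 6 and 7 and at 61.8, 67.8 and 486 CPM in WT-labelled mice 1, 4 and 5. Mouse 6 lay inside the range of the WT-labelled mice. WT-labelled mouse 8, not in the test, was at 441 CPM with a Ccl5 UMI in 26.3% of its 19 Tregs, the highest share of the 8 mice. The log2 fold change was 2.91 ± 0.80 (SE, adjusted p = 0.998, edgeR). It ran from 2.32 to 4.68 when 1 mouse was left out, and without mouse 6 the adjusted p was 0.0432 (edgeR). In mouse 3 a single cell held 211 of 336 UMIs and in mouse 7 a single cell held 176 of 257. Cxcl10 in ILC1-NK cells was at 212, 274, 116 and 576 CPM in KO-labelled mice 2, 3, 6 and 7 and at 138, 77.1, 48.6 and 57.0 CPM in WT-labelled mice 1, 4, 5 and 8, a difference of 1.92 ± 0.49 (adjusted p = 1.00, edgeR). The groups overlapped through mice 1 and 6.

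The Igfbp3 fibroblasts gave the other pairs. Ccl8 was at 7.36, 36.9, 25.6 and 38.1 CPM in KO-labelled mice 2, 3, 6 and 7 and at 63.3, 45.7 and 93.5 CPM in WT-labelled mice 4, 5 and 8. The groups did not overlap, but WT-labelled mouse 1, with 15 cells and not in the test, was at 30.4 CPM, inside the KO-labelled range. The log2 fold change was -1.12 ± 0.33 (SE, adjusted p = 0.999, edgeR). Cxcl10 was at 41.7, 151, 95.6 and 90.5 CPM in the same KO-labelled mice and at 1090, 134 and 57.0 CPM in the same WT-labelled mice, a difference of -2.16 ± 0.69 (adjusted p = 0.999, edgeR). The value of mouse 4 came from the single cell described above and was 185 CPM without it. Without mouse 4 the log2 fold change was -0.11. The same cell held 160 of the 323 Cxcl2 UMIs of all fibroblasts. In that class Cxcl2 differed by -2.54 ± 0.76 (unadjusted p = 0.00703, adjusted p = 1.00, edgeR), with WT-labelled mouse 4 at 47.9 CPM and WT-labelled mouse 8 at 59.5 CPM.

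**Figure D5:**
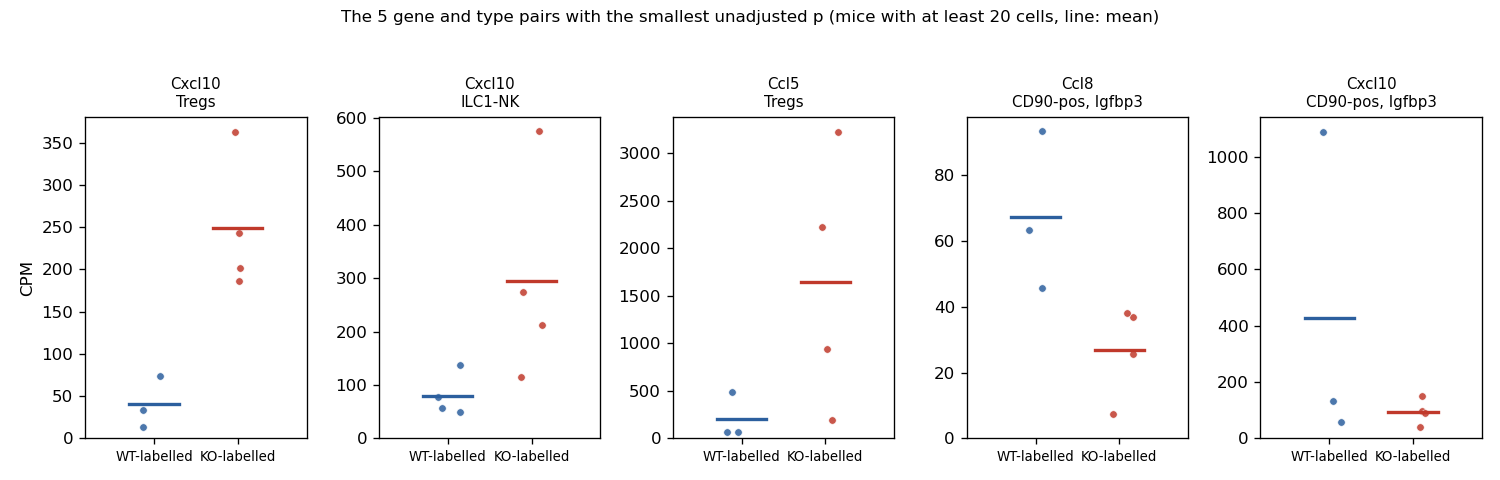
CPM in each mouse for the 5 member and subtype pairs with the smallest unadjusted p, for WT-labelled (blue) and KO-labelled (red) mice with at least 20 cells, with the group mean as a line. The groups do not overlap for Cxcl10 in Tregs and for Ccl8 in the Igfbp3 fibroblasts, and the WT-labelled mean of Cxcl10 in Igfbp3 fibroblasts rests on 1 mouse at 1090 CPM.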

How the data were processed

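UMI counts per gene and cell were deposited by the authors as 1 matrix of all 8 mice, made with Cell Ranger 3.0.2 on the mm10 build, per the submitters' processing notes. How cells were filtered, clustered and named is not stated in these sources. The authors also deposited a size factor per cell, a ratio of the cell's total to the geometric mean of all totals. The cell table was sorted by mouse and barcode to fit the matrix, after which this ratio matched for 53080 of 53080 cells (tolerance 1e-06), against 16 in file order.

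Counts were summed per mouse and authors' class or subtype, without the cells named doublets. No further doublet caller was run. The total depth of a type sets the precision of its CPM, and intervals cover counting error only. Mice with fewer than 20 cells of a type were left out of that type. Each type with at least 3 mice a group was fitted on all its genes with edgeR 4.0.16 (quasi-likelihood test, TMM scaling, filter on low counts), with p-values adjusted by Benjamini and Hochberg over all genes of the type and a threshold of 0.05. DESeq2 1.42.0 was an alternative. Tested on simulated fibroblast sums over 11023 genes, the edgeR fit recovered 90.9% of 4-fold and 47.8% of 2-fold changes. The simulation drew no counts set by single cells and did not cover the types with fewer cells. Its shares therefore do not give the power for members carried by few cells or for those types. Shares of cells were also computed after thinning to 1000 UMIs, which left out 4527 of 25505 KO-labelled and 4797 of 26259 WT-labelled cells.

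Each mouse is 1 library, and no number pairs the mice. All members are accounted for. Those with at least 100 UMIs were described singly, and the 5 member and type pairs with the smallest unadjusted p were named. The members and lists were chosen with earlier results of these data known. Symbols with near-identical copies, and genes that overlap another on the opposite strand (Cxcl10 with Art3, Ccl6 with E230016K23Rik, Xcl1 with Gm20743, Cxcl16 with Zmynd15, Ccl2 with Gm17268), may share reads. R 4.3.3 and Python 3.11.15 were used. One receptor of the list is not reported here.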

Additional observations from a re-analysis of the deposited data

Results flagged for a closer look

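In 5 of 36 groups of 4 mice, 1 mouse stood far from the other 3 in the main class of a member. Chance gives about 1 in 20 for normal values in independent groups. Groups of the same class shared mice here, and single cells set some values, so the 5 flags cannot be judged against that rate. Ccl21a in lymphatics of KO-labelled mouse 2 was at 17278 CPM, and the other KO-labelled mice were at 23202 to 24293 CPM. Ccl11 in fibroblasts of KO-labelled mouse 7 was at 332 CPM, against 541 to 568 CPM in the others, and in WT-labelled mouse 8 it was at 1393 CPM, against 370 to 411 CPM. Of the 188 fibroblasts of mouse 8, 164 were of the CD90-pos, Igfbp3 subtype. Cxcl13 in fibroblasts of KO-labelled mouse 7 was at 12.9 CPM, against 52.7 to 58.6 CPM. Ccl12 in macrophages of KO-labelled mouse 6 was at 42.1 CPM, against 8.61 to 10.3 CPM, and 1 cell of that mouse held 31 of the 109 macrophage UMIs of the gene.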

How the results depend on the processing

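No paired analysis was possible because the groups share no mouse number. With no filter on low counts, the number of member and class pairs called rose from 0 to 10, that of member and subtype pairs from 0 to 18 and that of receptor and class pairs from 0 to 2, and Cxcl16 in macrophages turned to 0.010. The cause was not tested. DESeq2 called 1 member and subtype pair, and leaving out 1 mouse gave 0 to 2 (2 without WT-labelled mouse 5 and 2 without KO-labelled mouse 6). Without 1 mouse, the log2 fold change of Spry2 in epithelium ran from -0.61 to 0.068. It ran across 0 for 12 members in their main class: Ccl11 (-0.48 to 0.39) and Ccl7 (-0.40 to 0.24) in fibroblasts, Ccl28 (-0.23 to 0.026) and Cx3cl1 (-0.079 to 0.21) in epithelium, Ccl5 (-0.22 to 0.36) and Xcl1 (-0.079 to 0.38) in T cells, Cxcl12 in endothelium (-0.84 to 0.29), and Ccl4 (-0.78 to 0.27), Ccl8 (-0.74 to 0.68), Cxcl16 (-0.23 to 0.33), Cxcl2 (-0.52 to 0.28) and Cxcl9 (-0.42 to 0.16) in macrophages. The main class was kept by 24 to 29 of 29 members over the alternatives, and the main subtype by 21 to 29. Leaving out the top cell of each mouse and class, an alternative chosen after seeing the data (as was leaving out the endothelial cell with the most Ccl2), changed the main class of Ccl2, Ccl25 and Ccl27a. Depth limits the members with few UMIs, and classes with few cells rest on few mice.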

Other observations

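Of the classes too small for a mean over mice, the 42 glial cells had Cxcl1 in 12 cells. All 97 Ccl21a UMIs of the glial class were in 1 cell of mouse 6, which also had 23 UMIs of the lymphatic marker list, 20 of the fibroblast list and 16 of the glial list.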
